A study of Homo sapiens with 6 samples.

Results

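Parental-only loci are stretches of chromatin that were called open in all 3 libraries of parental MDA-MB-231 cells and in none of the 3 libraries of a SAP30 knockout line. Summits were widened by 250 bp in both directions, overlapping windows from any of the 6 libraries were joined into union loci, and a locus was kept when every parental library and no knockout library had a summit in it. Chromosomes 1 to 22 were used, without the long arm of chromosome 11. The rule kept 425 of 53008 union loci, or 0.802% of them, and 2.23% of 19053 loci at which all 3 parental libraries had a peak. The opposite rule, a peak in every knockout library and in no parental one, kept 763 loci, 1.44% of the union loci and 3.7% of those with a peak in all 3 knockout libraries. Over all chromosomes there were 56419 union loci, of which 494 were Parental-only.

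MDA-MB-231 is an established line of human breast cancer cells of the triple-negative type. Parental cells (genotype Parental, 3 libraries) were compared with SAP30-KO1 cells (genotype SAP30 knockout, 3 libraries), and the labels name no treatment. SAP30-KO1 was made by CRISPR with a single guide RNA and puromycin selection, a step not described for the parental cells, and is kept as a mixture of selected knockout cells, so it stands for that line and not for every SAP30 knockout. The labels do not say which libraries came from separate cultures.

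ATAC-seq uses a transposase that inserts sequencing adapters into DNA that nucleosomes leave bare, so peaks mark promoters, enhancers and other sites where regulatory proteins sit. SAP30 is a subunit of the SIN3 complex, a scaffold that brings histone deacetylases to chromatin. AP-1, a family of FOS and JUN dimers, binds many of the distal open sites of triple-negative breast cancer cells, and SP and KLF factors bind GC-rich promoters.

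The sequences of 5 of the 6 strongest promoter loci and 4 of the 6 strongest other loci are given first, because the motif and base composition results below refer to them. Each is the middle 200 bp of a locus on the plus strand of GRCh37 (hg19), read 5′ to 3′. Capitals mark matches, on either strand, to 6 of the 12 short motifs searched, namely AP-1 (TGANTCA), the CTCF core, ETS, SP/KLF, RUNX and TEAD, and no such matches overlapped each other. The 5 promoter loci held matches to the CTCF core (AGGGGGC or AGGTGGC), ETS (CCGGAA), SP/KLF (GGGCGG), RUNX (TGTGGT) and TEAD (GGAATG).
LMO7 promoter, chr13:76362805-76363004: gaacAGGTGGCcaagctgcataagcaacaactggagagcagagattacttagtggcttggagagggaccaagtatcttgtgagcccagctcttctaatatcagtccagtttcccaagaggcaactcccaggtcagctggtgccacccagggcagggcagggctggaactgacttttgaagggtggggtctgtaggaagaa
TSPAN14-AS1 promoter, chr10:82295837-82296036: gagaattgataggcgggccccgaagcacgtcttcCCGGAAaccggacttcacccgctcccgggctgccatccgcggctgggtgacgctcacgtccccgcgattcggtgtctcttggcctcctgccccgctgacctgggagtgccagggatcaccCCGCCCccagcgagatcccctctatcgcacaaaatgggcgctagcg
ILK promoter, chr11:6628184-6628383: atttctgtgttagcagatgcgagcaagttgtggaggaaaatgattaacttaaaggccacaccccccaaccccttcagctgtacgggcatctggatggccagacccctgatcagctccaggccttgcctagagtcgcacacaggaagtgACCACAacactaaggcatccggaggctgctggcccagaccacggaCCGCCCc
ENSG00000205325 promoter, chr17:14679375-14679574: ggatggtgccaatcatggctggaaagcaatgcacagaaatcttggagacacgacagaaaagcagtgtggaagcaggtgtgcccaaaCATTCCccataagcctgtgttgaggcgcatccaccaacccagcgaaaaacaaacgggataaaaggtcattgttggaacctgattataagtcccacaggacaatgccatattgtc
RERGL promoter, chr12:18473032-18473231: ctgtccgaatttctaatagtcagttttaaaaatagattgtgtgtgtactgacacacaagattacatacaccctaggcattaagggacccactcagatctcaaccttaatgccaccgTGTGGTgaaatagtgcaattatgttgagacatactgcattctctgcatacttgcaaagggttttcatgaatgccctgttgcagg
Of the 4 loci outside promoters, B9D1 and SPRY2 held a RUNX match in the printed 200 bp, and DCTD and PDE10A held no match to these 6 motifs there.
Intergenic, nearest gene DCTD, chr4:183730364-183730563: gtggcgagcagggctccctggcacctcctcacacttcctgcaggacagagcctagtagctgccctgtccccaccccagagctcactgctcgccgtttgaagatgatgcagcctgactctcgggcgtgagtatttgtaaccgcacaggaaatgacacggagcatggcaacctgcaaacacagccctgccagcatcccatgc
Intron of B9D1, nearest gene MAPK7, chr17:19273872-19274071: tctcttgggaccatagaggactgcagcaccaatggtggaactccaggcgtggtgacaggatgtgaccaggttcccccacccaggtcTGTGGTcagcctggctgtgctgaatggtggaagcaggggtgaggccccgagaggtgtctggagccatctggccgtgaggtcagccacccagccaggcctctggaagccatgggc
Intron of PDE10A, chr6:166225043-166225242: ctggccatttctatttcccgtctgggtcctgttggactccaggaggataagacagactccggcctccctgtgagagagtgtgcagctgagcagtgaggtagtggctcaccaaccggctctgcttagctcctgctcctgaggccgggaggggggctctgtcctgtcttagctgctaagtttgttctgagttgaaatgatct
Intergenic, nearest gene SPRY2, chr13:82300260-82300459: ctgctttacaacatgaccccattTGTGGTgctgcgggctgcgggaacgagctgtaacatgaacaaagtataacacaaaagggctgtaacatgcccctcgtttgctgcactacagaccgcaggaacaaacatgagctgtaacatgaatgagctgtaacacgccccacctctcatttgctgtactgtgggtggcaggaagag
In the 300 bp around the locus centre, the CTCF core was found in 14.7% of all union loci, ETS in 9.23%, SP/KLF in 23.1%, RUNX in 23.7% and TEAD in 22.2%. These 9 sequences ran from the AT-rich RERGL promoter, with 41% GC and 2 CpG dinucleotides, to the GC-rich TSPAN14-AS1 promoter, with 67% GC and 20 CpG. The LMO7 promoter sequence held no CpG. A match says only that the letters are present.

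The values that chose the loci were the presence of a summit in each library, so the absence of knockout peaks is the rule and not a finding, and no difference between the groups at these loci was tested. Each summit carries a score, the −log10 of the q value of its peak, and peaks were compared by the percentile rank of that score within their own list, from 0 for the weakest to 100 for the strongest. The parental lists held 36694, 30477 and 33552 summits and the SAP30-KO1 lists 29762, 40650 and 34262, in replicate order. Read counts were not part of the lists. The sequencing depth is therefore unknown, and the length of a list can move with it. SAP30 itself had a promoter peak in all 6 libraries, with ranks of 84.7, 64.8 and 81.3 in parental cells and 71.8, 49.5 and 89.5 in SAP30-KO1 cells, so the groups overlapped. The promoter peak does not show whether the gene is intact. Of the mesenchymal markers of this line, VIM, CD44 and CAV1 had promoter peaks in all 6 libraries, AXL and ZEB1 in 3 and FOSL1 in 2. Of the 6 luminal markers, GATA3 had peaks in 5 libraries, ERBB3 in 4, FOXA1 in 2 and ESR1, PGR and TFF1 in 1 each, and none had peaks in all 6.

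Most Parental-only loci were weak peaks in the parental cells themselves. Their median rank was 37.9, 33.4 and 36.1 in parental replicates 1, 2 and 3, against 75.3, 70.4 and 72.9 at 15444 loci where every library had a peak. The corresponding median scores were 4.80, 4.90 and 4.61, against 8.79, 8.37 and 8.08. The mean parental rank of a Parental-only locus ran from 3.87 to 92.3, with a median of 36.6 and quartiles of 26.4 and 46.9. The SAP30-KO1-only loci had a nearly equal median, 35.3, over their own libraries. Of the 425 loci, 83 (19.5%) had a mean rank of at least 50 and 9 a mean rank of at least 75. The parental libraries differed widely at these loci. The range of a locus over the 3 libraries had a median of 31.5 percentile points, compared with 21.0 at loci with a peak in all 6, and 212 loci lay above rank 50 in some parental libraries and below it in others. Only 37 loci had a rank of at least 50 in every parental library, and 176 stayed under 50 in every one. The summits of the 3 parental libraries lay a median of 220 bp apart within a Parental-only locus and 208 bp apart within a locus shared by all 6.

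The share of parental loci with no knockout peak fell steeply with their strength. Of the loci with all 3 parental peaks and a mean rank from 20 to 30, 8.70% (91 of 1046) were Parental-only. The share was 3.83% (90 of 2352) for ranks from 40 to 50, 0.918% (26 of 2832) from 60 to 70 and 0.0411% (1 of 2432) above 90. The share also differed by position in the gene annotation at similar strength. Among loci ranked under 50, 3.28% of promoter loci (70 of 2137) were Parental-only, compared with 7.28% of intronic loci (149 of 2048) and 8.50% of intergenic loci (110 of 1294). Among loci ranked 50 or more the shares were 0.373% at promoters, 0.730% in introns and 0.886% between genes. Because the loci were chosen by their peaks in these same libraries, these shares describe the loci and were not tested.

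**Figure D1:**
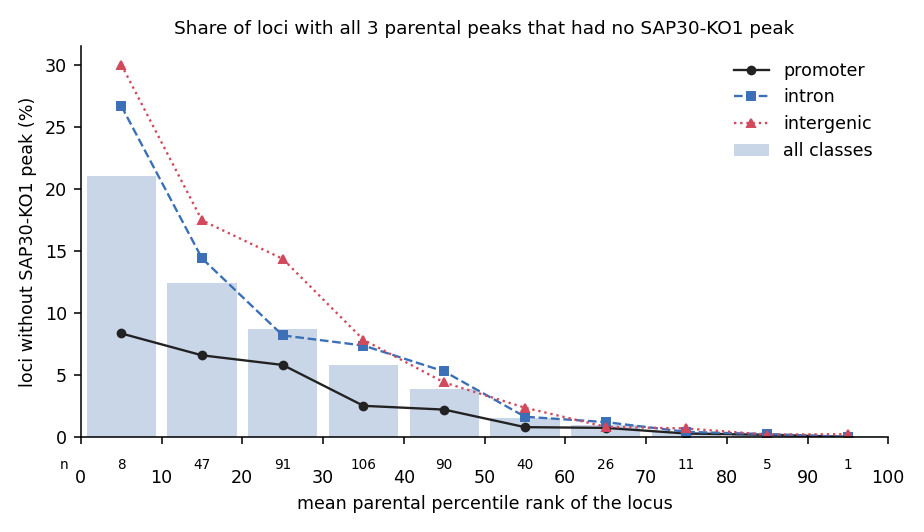
The x axis gives the mean parental percentile rank of a locus in 10 bins and the y axis the percentage of loci with all 3 parental peaks that had no SAP30-KO1 peak, with bars for all classes and lines for promoters, introns and intergenic sequence. The numbers under the bars count the Parental-only loci. The share fell from 21.1% in the weakest bin, which held 38 loci, to 0.0411% in the strongest, and the promoter line lay under the intron and intergenic lines in every bin up to rank 90.

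Loci just outside the rule were about as weak as those inside it, or weaker. The 852 loci with all 3 parental peaks and 1 knockout peak had a median parental rank of 38.0, close to the 36.6 of the Parental-only loci, and a median rank of 30.0 in the knockout library that had the peak. That library was SAP30-KO1 replicate 2, which has the longest list, at 495 of them, replicate 3 at 232 and replicate 1 at 125. The 1478 loci with 2 parental peaks and no knockout peak were weaker, with a median rank of 26.3. Along chromosome 11, the last Parental-only locus before the part left out was at chr11:47736617-47737374, with a mean rank of 45.8.

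The rule was also applied without 1 library of each group, so that the libraries left out could be examined on loci chosen without their peaks. The loci themselves were still those merged from all libraries. There were 9 such pairs, which share libraries and therefore got no test. The left-out parental library had a peak at 41.3% to 59.8% of the loci and the left-out knockout library at 17.6% to 50.5%. The parental share was the higher in 8 of 9 pairs, with a median difference of 19.6 percentage points and a range from -2.28 to 34.9. The differences were 34.9, 23.6 and 28.1 points with SAP30-KO1 replicate 1 left out and 28.2, 14.1 and 19.6 points with replicate 3 left out, for parental replicates 1, 2 and 3. With SAP30-KO1 replicate 2 left out they were 9.49, -2.28 and 0.723 points, so parental and knockout libraries were close to each other there. Over all union loci, parental replicates 1, 2 and 3 had a peak at 61.9%, 51.6% and 56.4%. SAP30-KO1 replicates 1, 2 and 3 had a peak at 50.3%, 68.3% and 57.8%, so replicate 1 had the smallest share and replicate 2 the largest. In every pair, each left-out library had a peak at a smaller share of the chosen loci than of all union loci. The union share also counts loci found only in that library. With 1 library left out, parental replicates 1, 2 and 3 had a peak at 55.6%, 38.7% and 47.8% of the chosen loci. They had one at 90.6%, 83.7% and 85.8% of loci with a peak in both other parental libraries. The shares for SAP30-KO1 replicates 1, 2 and 3 were 22.7%, 53.8% and 35.3%. Over loci with all 3 parental peaks they were 86.7%, 94.6% and 90.7%. The number of Parental-only loci also moved when a library was left out before merging. It went from 425 to 923 without SAP30-KO1 replicate 2 and to 658 without replicate 3. Without parental replicates 1, 2 and 3 it was 769, 1100 and 891. Fewer conditions have to be met in each of those cases. With lists cut to the same number of top-ranked summits, 29762 in each library, 483 loci met the rule.

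**Figure D2:**
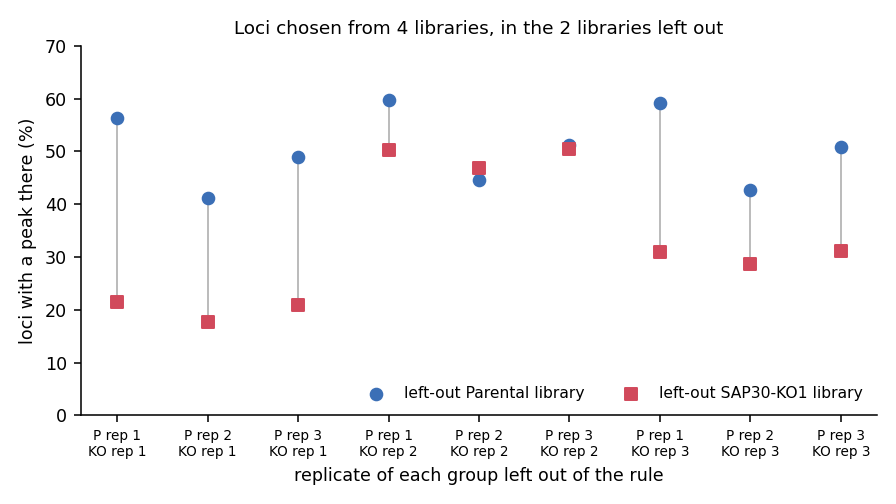
Each position on the x axis is a pair of libraries, a parental (P) and a SAP30-KO1 (KO) replicate, left out of the rule, and the y axis is the percentage of the loci chosen from the other 4 libraries that had a peak in the left-out parental library (circles) or SAP30-KO1 library (squares). Circles lie above squares in 8 of 9 pairs, and the 3 pairs with SAP30-KO1 replicate 2 have the smallest gaps, from -2.28 to 9.49 points.

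The 3 strongest Parental-only loci ranked above 80 in every parental library. The first lay between genes at chr8:127387445-127388012, 180.9 kb from the start of LRATD2, with ranks of 96.7, 84.7 and 95.5 and scores of 18.6, 11.3 and 16.2 in parental replicates 1 to 3. The nearest knockout summit of any library was 36421 bp away. The second was an intergenic locus at chr4:183730087-183730902, 106.3 kb from DCTD, the deaminase that makes deoxyuridine monophosphate, with ranks of 83.3, 83.0 and 82.2. A knockout summit lay 2597 bp from it. The third, at chr17:19273636-19274283, was in an intron of the ciliary transition zone gene B9D1 and 7.06 kb from MAPK7, which encodes the kinase ERK5. Its ranks were 83.9, 80.8 and 83.3. These 3 loci differed little between parental libraries, with standard deviations of 6.59, 0.581 and 1.67 percentile points.

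Intronic loci made up much of the rest of the 20 strongest. An intronic locus of PDE10A, a phosphodiesterase of cyclic nucleotides, had ranks of 83.1, 82.9 and 77.9 at chr6:166224784-166225625. An intronic locus of the NMDA receptor subunit gene GRIN3A had ranks of 63.7, 70.6 and 90.8 at chr9:104467173-104467993. An intronic locus of SNTB1, a syntrophin of the dystrophin complex, had ranks of 87.1, 61.6 and 75.5. The parental libraries disagreed by more than 20 percentile points at the latter 2 genes. A locus in an intron 10.6 kb from MYOM1, which encodes the sarcomere protein myomesin, had ranks of 83.1, 73.4 and 65.4. An intronic locus of PTPRN2, a receptor-type phosphatase homologue of secretory granules, had ranks of 79.4, 68.9 and 71.2, and the nearest knockout summit was 242355 bp away. Intronic loci of ZNF680 and of UGT8, the enzyme that makes galactosylceramide, had mean ranks of 69.0 ± 7.17 and 68.8 ± 18.9 (SD, n = 3). Intergenic loci lay 321.8 kb from NRSN1 (mean rank 76.4 ± 17.8), 1385 kb from the receptor tyrosine kinase inhibitor SPRY2 (75.7 ± 17.4), 269.5 kb from DAOA (70.8 ± 18.3) and 688.8 kb from FLRT2 (70.02 ± 21.8). Distance to the nearest start site does not show which gene, if any, such a site acts on. Among the 20 loci, 3 were at promoters of genes with no protein product, RN7SKP249 (mean rank 80.1 ± 17.6), TSPAN14-AS1 (74.99 ± 17.8) and ENSG00000205325 (72.5 ± 17.8).

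**Figure D3:**
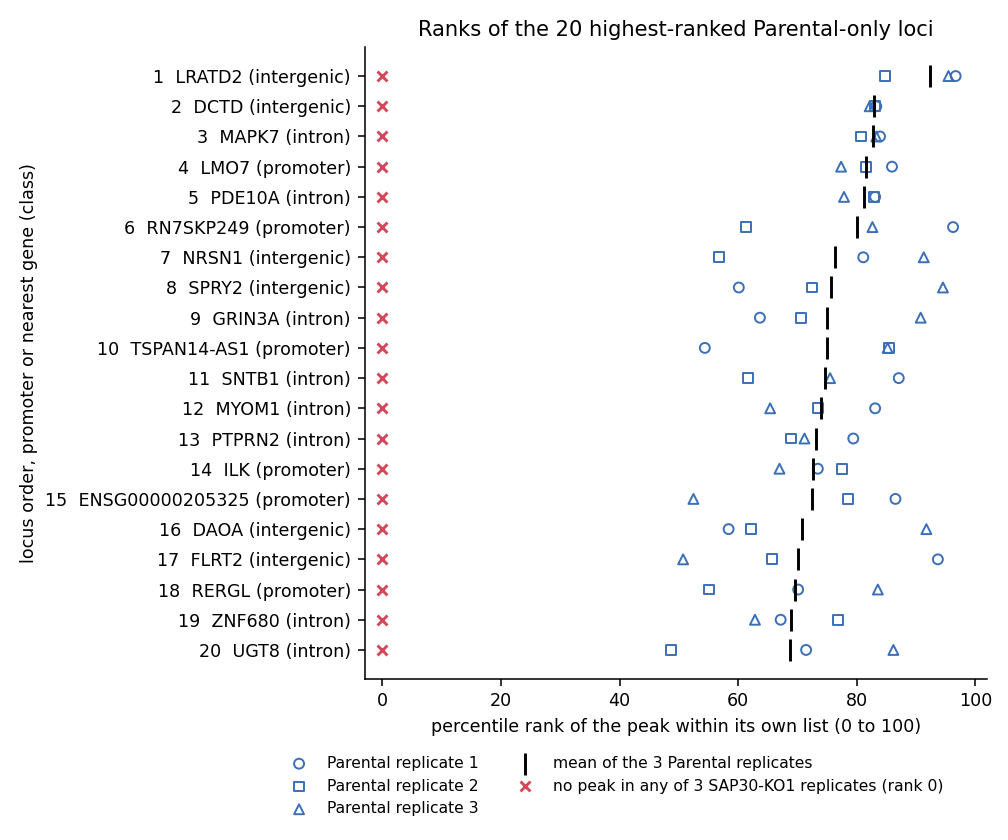
Each row is a Parental-only locus, ordered by mean rank and named by the gene whose promoter it is at or by the nearest protein-coding gene, and the x axis is the percentile rank of the peak within its own list. Open symbols are the 3 parental replicates, black bars their mean, and crosses at 0 mark the absent SAP30-KO1 peaks that the rule required. The replicates lie close together at DCTD, MAPK7, LMO7 and PDE10A and far apart at NRSN1, SPRY2, FLRT2 and UGT8.

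Promoters held 91 of the 425 loci (21.4%), counted within 1 kb of an annotated transcript start, exons 16 (3.76%), introns 183 (43.1%) and intergenic sequence 135 (31.8%). Promoters made up 29.3% of all union loci and 43.5% of those open in all 6 libraries. The share of the Parental-only loci lay below both and was closer to that of loci found in a single library, 18.4%, and of SAP30-KO1-only loci, 17.4%. Of the 91 promoter loci, 60 were at a start site of 63 protein-coding genes, 25 at lncRNA start sites and 6 at neither. For 33 of the 63 genes no promoter peak was found in any SAP30-KO1 library at any start site. The rule already required that no knockout library had a peak in the locus itself. Of all 18355 protein-coding genes, 6704 (36.5%) had no promoter peak in any library, a count that also takes in the parental libraries. The 63 genes were picked through parental promoter peaks, so that share is not a like background for the 33. A share over genes with parental promoter peaks was not computed. For 20 genes all 3 knockout libraries had a peak outside the locus but within 1 kb of some start site of the gene, and for 10 genes 1 or 2 libraries did.

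LMO7 and ILK had the strongest promoter loci of protein-coding genes. The locus of LMO7, a LIM domain protein of cell junctions, lay at chr13:76362600-76363196, 70 bp from a start site, with ranks of 85.9, 81.6 and 77.4. Elsewhere among the 26 annotated start sites of LMO7, knockout peaks had ranks of 1.59 in replicate 1 and 41.3 in replicate 3, and replicate 2 had none. The locus of ILK, the integrin-linked kinase of focal adhesions, lay at chr11:6627928-6628727, 618 bp from a start site, with ranks of 73.4, 77.5 and 67.0. Other ILK start sites were open in knockout cells, with ranks of 30.1, 68.3 and 55.0. The Parental-only call at ILK is therefore about a site beside an open promoter.

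Of the 15 strongest protein-coding promoter loci, 5 were at RERGL, DAB2IP (2 loci), AGAP3 and TOLLIP. RERGL, a RAS-like gene, had ranks of 70.1, 55.0 and 83.6 and no promoter peak in any knockout library. DAB2IP, a RAS GTPase-activating protein, had a promoter locus at chr9:124512781-124513594 with ranks of 69.997, 67.2 and 66.4 and a second at chr9:124360372-124360920 with ranks of 35.4, 51.0 and 69.4. Its strongest promoter peak in knockout cells, at other start sites, had ranks of 95.02, 96.1 and 92.6, and in parental cells 91.7, 88.5 and 88.7. AGAP3, an ARF GTPase-activating protein, had ranks of 37.2, 47.5 and 83.6 at the Parental-only promoter locus, while other start sites in knockout cells had ranks of 64.7, 62.4 and 55.0. TOLLIP, an adaptor of Toll-like receptor signalling, had ranks of 73.3, 66.3 and 58.4, and 2 of 3 knockout libraries had a peak at another start site.

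Receptors and membrane proteins among the 15 strongest protein-coding promoter loci were CD1D, which presents lipids to natural killer T cells, the G protein-coupled receptors GPR85 and GPR55, and the prominin PROM2. CD1D had ranks of 88.8, 36.6 and 73.2, a wide spread, and 1 knockout library had a peak elsewhere at its promoter. GPR85 had ranks of 77.0, 67.7 and 36.1, GPR55 54.9, 62.2 and 49.2, and PROM2 45.8, 64.1 and 43.3, and none of these 3 genes had a promoter peak in a knockout library. UQCRC1, a core subunit of mitochondrial complex III, had ranks of 60.1, 69.0 and 56.4 at chr3:48646652-48647526, 7 bp from a start site, and no knockout promoter peak at any of its 10 start sites. The transcription factor gene BCL11B had ranks of 69.9, 62.4 and 24.6, and the zinc finger genes ZNF256 and ZNF311 had mean ranks of 52.2 ± 29.8 and 51.6 ± 11.6 (SD, n = 3). Parental replicates thus ranged from closely matched, as at the stronger DAB2IP locus and GPR55, to more than 50 percentile points apart, as at CD1D and ZNF256.

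Base composition and motifs were not used by the rule. Parental-only promoters were poorer in GC than promoters with a peak in all 6 libraries, with medians of 58.3% and 65.7% GC and of 11 and 26 CpG dinucleotides in 300 bp. Promoters found in a single library were close to the Parental-only ones, at 59% GC and 12 CpG. SAP30-KO1-only promoters had 62% GC and 20 CpG. The SP/KLF letters were found in 39.6% of Parental-only promoters (36 of 91), 67.2% of promoters shared by all 6 libraries, 58.2% of all union promoters and 42.1% of promoters found in a single library. Among SAP30-KO1-only promoters the share was 54.9%. Outside promoters the GC content was alike, 48.2% in Parental-only loci and 48.3% in loci shared by all 6. SP/KLF thus gave values for Parental-only promoters close to those of promoters seen in 1 library.

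The AP-1 letters (TGANTCA, which read the same on both strands) were held by a smaller share of Parental-only loci than of shared open sites outside promoters, and by a larger share at promoters. Within 300 bp of sequence they were in 124 of 425 loci (29.2%), compared with 35.5% of all union loci and 27.8% of loci found in a single library. At promoters they were in 20.9% (19 of 91), compared with 14.6% of union promoters and 12.3% of promoters open in all 6 libraries. SAP30-KO1-only promoters had a nearly equal share, 21.1% (28 of 133). Outside promoters they were in 31.4% (105 of 334), compared with 44.2% of the union loci, 56.5% of the loci open in all 6 libraries and 51.7% of SAP30-KO1-only loci. Non-promoter loci found in a single library had 30.7%. The gap was also present in both of the broad rank strata compared. Within each stratum the Parental-only loci lay towards the weaker ranks, so peak strength was not matched. Among non-promoter loci with all 3 parental peaks and a rank under 50, the motif was in 32.4% of Parental-only loci (88 of 272) and 50.9% of the rest, and at ranks of 50 or more in 27.4% (17 of 62) and 56.0%. The following stretches of 60 bp show the 3 strongest Parental-only loci outside promoters with a match, in capitals, on the plus strand.
AP-1 match in the PDE10A locus, chr6:166225243-166225302: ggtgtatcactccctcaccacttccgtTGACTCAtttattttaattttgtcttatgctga
AP-1 match in the FLRT2 locus, chr14:86778732-86778791: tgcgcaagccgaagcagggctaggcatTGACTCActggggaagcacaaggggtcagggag
AP-1 match in the ZNF680 locus, chr7:64002223-64002282: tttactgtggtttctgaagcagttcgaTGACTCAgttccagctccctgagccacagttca
The match lay 131 bp, 109 bp and 47 bp from the centre of its locus.

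The AP-1 share followed the number of knockout libraries that held the peak. Among non-promoter loci with all 3 parental peaks it was 31.4% with no knockout peak, 42.8% with 1, 47.6% with 2 and 56.5% with 3. Among loci with no knockout peak it was 26.7%, 35.0% and 31.4% with 1, 2 and 3 parental peaks. Among loci with no parental peak it was 35.3%, 50.3% and 51.7% with 1, 2 and 3 knockout peaks. The share of AP-1 sites was also compared over whole libraries, leaving out the Parental-only and SAP30-KO1-only loci. Parental replicates 1, 2 and 3 had 48.3%, 50.9% and 49.1%, and SAP30-KO1 replicates 1, 2 and 3 had 53.8%, 50.4% and 52.1%. The groups overlapped, and the difference of 2.68 percentage points was not significant (exact permutation test, two-sided, p = 0.2, with 0.1 the smallest p that 3 against 3 allows).

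**Figure D4:**
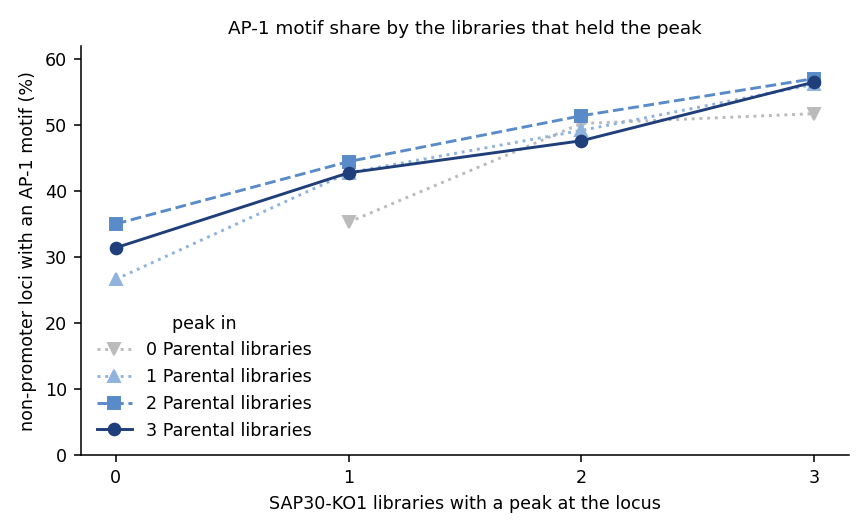
The x axis is the number of SAP30-KO1 libraries with a peak at a locus and the y axis the percentage of non-promoter loci with the AP-1 letters in 300 bp, with a line for each number of parental libraries with a peak. Every line rises from left to right, from 31.4% to 56.5% where all 3 parental libraries had the peak. The median rank of the peaks also rose along every line.

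Outside promoters, the other motifs differed less from all union loci than AP-1 did. TEAD letters were in 28.1% of Parental-only loci and 25.7% of all union loci, RUNX in 29.6% and 28.0%, the CTCF core in 9.58% and 11.3%, ETS in 3.89% and 4.24%, and SP/KLF in 11.7% and 8.58%. FOX (TGTTTAC) was in 9.28% and 6.91%, CEBP (TTGCNNAA) in 12.9% and 15.3%, GRE (ACANNNTGT) in 8.68% and 9.84%, and ISRE (GAAANNGAA) in 11.1% and 10.4%. The E-box (CACGTG) was in 4.19% and 3.91%, and NRF1 (GCGCATGC) in 0.299% and 0.387%. At promoters, RUNX was in 27.5% of Parental-only loci (25 of 91), compared with 13.4% of union promoters, 12.2% of those open in all 6 libraries and 14.8% of those found in a single library. Its share among SAP30-KO1-only promoters was 18.0%. Among non-promoter loci ranked 50 or more, TEAD was in 16.1% of Parental-only loci (10 of 62) and 30.0% of the others with all 3 parental peaks, while below rank 50 it was in 30.9% and 27.2%.

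Parental-only loci were mostly single sites. The nearest SAP30-KO1 summit of any library was under 1 kb from 15 loci, 1 kb to 10 kb from 157 and at least 10 kb from 253, of which 19 had none within 100 kb. The median distance was 15352 bp, the smallest 640 bp and the largest 478444 bp. Another Parental-only locus lay within 100 kb of 39 loci (9.18%), compared with 11.3% for the SAP30-KO1-only loci. The loci with all 3 parental peaks are far denser along the genome, and 83.9% of them had another within 100 kb. Without parental replicate 2 the share was 16.6%, over the larger number of loci that then met the rule.

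There was 1 chain of 3 loci with neighbours within 100 kb. It ran over chr6:28908473-28973755, between TRIM27, a ubiquitin ligase, and ZNF311, and its loci had mean ranks of 24.0, 28.1 and 51.6. Of the 8 union loci in that stretch, 3 had a peak in some knockout library and 1 in all 3. A further 18 chains held 2 loci. Only 17 loci shared a stretch with no knockout summit with another Parental-only locus, in 8 stretches. The longest was a stretch of 260.5 kb on chromosome 13 beside IRS2, which encodes the insulin receptor substrate 2 adaptor. Its 3 loci lay 210.1, 199.5 and 374.0 kb from the IRS2 start, with mean ranks of 67.2 ± 19.2, 41.7 ± 18.7 and 28.7 ± 26.6 (SD, n = 3). At each of the 3 loci parental replicate 1 had the lowest rank, 45.2, 20.9 and 8.96. Another locus, in an IRS2 intron 8.20 kb from the start, had ranks of 45.2, 56.4 and 10.8.

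Few genes had several loci nearby. Of 18355 protein-coding genes, 420 (2.29%) were the nearest or the host gene of at least 1 Parental-only locus, 25 of at least 2 and 3 of at least 3. The last were IRS2 with 4, DAB2IP with 3 and TENM2, a teneurin of the synapse, with 3. The third DAB2IP locus was intronic and among the weakest, with ranks of 7.97, 1.66 and 11.2. The TENM2 loci were spread over 2032 kb, at mean ranks of 33.7, 26.4 and 25.7, and 2 of them lay over 1000 kb from its start. At the 315 genes nearest to non-promoter Parental-only loci, promoters were open in all 6 libraries for 161 (51.1%), compared with 35.4% of all protein-coding genes. The rank of those promoters in knockout minus parental libraries had a median of 1.59 points, compared with 0.516 over all such genes. All 3 knockout ranks lay under all 3 parental ranks for 6 of the 161 (3.73%), against 4.89% over all genes. The promoter was lower in knockout libraries at 39.8% of the 161 and at 47.0% over all genes, so a lower promoter rank was not more common near these loci.

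None of the genes examined from 7 lists had a Parental-only locus at its promoter or as nearest or host gene. The first 2 lists were representative genes that the study names as activated by SAP30 (4 of 6 genes examined, among them PDGFB and CLDN1) or repressed by it (3 genes). They are not the full gene sets that the study took from RNA-Seq, which were not examined. The others were the SIN3 complex (16 genes examined), the MLL1 complex (4 genes), angiogenesis (19 genes), cell adhesion and motility (20 genes) and AP-1 and TEAD factors (13 genes). The lists other than the first 2 were put together from general knowledge. Together the lists hold 85 genes, each counted once. Of these, 76 lie on the parts of the chromosomes used here, and the rest could not be scored. The count was 0 of 76 against 2.29% of all protein-coding genes. A list of that size would hold few such genes at the overall share, so the count of 0 says little about the lists.

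Peaks that stayed open beside the Parental-only loci did not move clearly with them. Within 50 kb there were 399 loci with a peak in all 6 libraries. Their mean rank in knockout minus parental libraries had a median of -0.382 percentile points, and 53.4% were lower in knockout cells. The remaining 15045 shared loci had a median of 0.318 points, and 48.2% were lower. Near the Parental-only loci the library medians were 77.1, 73.4 and 76.1 in parental cells and 71.2, 78.7 and 73.7 in knockout cells, which overlap. The median was 0.0784 without parental replicate 1 and 0.0141 without SAP30-KO1 replicate 1, so its sign depended on single libraries.

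The share of parental loci without a knockout peak differed between the 38 chromosome arms examined. It had a median of 1.95% and ran from 0.377% on 4p (1 of 265 loci) to 7.87% on 21q (10 of 127). The arms 16q (5.67%, 16 of 282), 22q (5.49%, 5 of 91) and 13q (4.68%, 26 of 555) followed 21q. In the opposite direction, 3.7% of loci with all 3 knockout peaks had no parental peak. That share was 8.06% on 22q (10 of 124), the highest of any arm, and 5% on 21q (6 of 120). It was 3.56% on 16q (9 of 253), 2.53% on 13q (13 of 514) and 7.35% on 4p (28 of 381). Where all 6 libraries had a peak, the median rank in knockout minus parental libraries was -3.70 points on 16q and -3.12 on 13q, and 7.503 on 4p, while 21q and 22q had medians of 0.882 and -0.0358 and 7q, with 3.44% of loci Parental-only, had 1.77. Of the 19 arms with a share above the median, 11 had a negative shift of their shared loci, and of the 19 others 5 did.

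**Figure D5:**
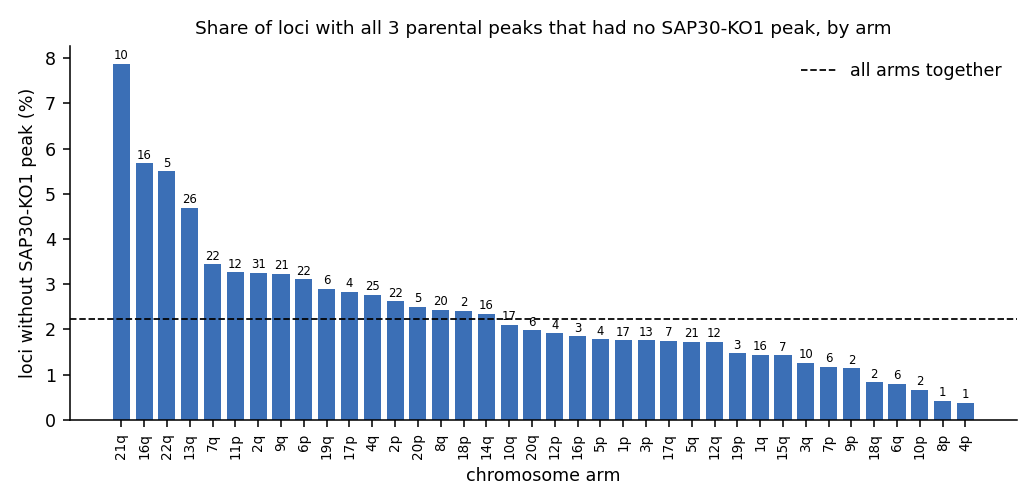
The x axis lists chromosome arms and the y axis gives the percentage of loci with all 3 parental peaks that had no SAP30-KO1 peak, with the number of Parental-only loci above each bar. The dashed line is the share over all arms, 2.23%. The arm 21q stands at 7.87%, followed by 16q, 22q and 13q, and 4p is lowest at 0.377%.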

How the data were processed

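ATAC-seq was measured in 3 Parental and 3 SAP30-KO1 libraries. The authors sequenced single-end reads of 75 bases, trimmed them (Trim Galore 0.4.5), aligned them to hg19 (Bowtie2 2.3.3.1), dropped duplicates (Picard) and called peaks (MACS2 2.1.0) at a q value of 0.05. Transposase shift and blacklist filtering are not given in the sources used here. The deposited lists give a summit and a score per peak, read from its values as the −log10 of the q value. The lowest score was 1.31 to 1.33 in every library. Scores of separate lists are not on a common scale, so they were ranked within each list, with 0 for no peak.

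Windows were 501 bp, and 1 shared base was enough to merge them. Classes used GENCODE release 44 mapped to GRCh37, with promoters within 1 kb of any transcript start. Motifs were searched on both strands in 300 bp around the mean summit position, in GRCh37 sequence. Python 3.11.15, pandas 2.3.3, pysam 0.24.0, scipy 1.17.1 and matplotlib 3.10.9 were used. The merging was tested on 4000 simulated loci, where all 200 planted Parental-only loci were recovered.

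Named loci are the 20 with the highest mean parental rank, the 15 highest at protein-coding promoters, chains of at least 3, genes with at least 3 loci and members of the 7 gene lists. No sequence from chromosome 8 is shown, and the sequence of 1 further locus is not reported here. The members, lists and comparisons were chosen with earlier results of these data known. The share of AP-1 letters by number of libraries and per library, and the left-out pairs, were chosen after seeing the data.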

Additional observations from a re-analysis of the deposited data

How the results depend on the processing

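Results at the chosen loci come from no test, so the pairing by replicate number applies only to the AP-1 share per library. With the replicate number as a block the difference was 2.68 points, higher in SAP30-KO1 in 2 of 3 pairs (exact permutation test, p = 0.5, smallest possible 0.25). Libraries with the same number did not deviate together over loci open in all 6, with correlations of -0.0179, -0.0127 and -0.00320. Libraries with different numbers had correlations of -0.00334 to 0.0142. These values gave no sign of pairing by number, but they cannot show how the libraries were prepared, and the labels do not say. Without each library in turn the difference was 1.84 to 3.52 points. The number of Parental-only loci was 274 at a q value of 0.0001, 483 with equal lists of 29762 top-ranked summits, 1277 when 1 SAP30-KO1 peak was allowed and 1903 with 2 parental peaks required. The share of loci with all 3 parental peaks that were Parental-only was 1.85% at a q value of 0.0001, 2.79% with equal lists and 3.07% with windows reaching 100 bp from the summit. The Parental-only share of loci present in 1 group was 35.8%, and became 25.5% at that q value and 43.6% with equal lists. The median parental rank became 34.3 with equal lists and 41.9 with windows of 100 bp, and the promoter share 27.4% with those windows, 16.2% with promoters of 500 bp and 32.0% with promoters of 2.5 kb. The share with another locus within 500 kb was 23.1%. The AP-1 share was 11.1% in 100 bp, 35.8% in 500 bp and 24.2% with TGACTCA or TGAGTCA only. Alternatives in letters, equal lists and other q values or windows for the AP-1 share were chosen after seeing the data, and in each of them non-promoter Parental-only loci had a lower share than SAP30-KO1-only loci, 33.5% against 42.6% with windows of 100 bp being the smallest gap.

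Leaving out each library in turn gave 554 to 1100 loci, 2.91% to 4.85% of loci with all parental peaks, a Parental-only share of 23.1% (without SAP30-KO1 replicate 1) to 49.3%, a median rank of 29.5 to 37.9, a promoter share of 20% to 24.5%, a share with a neighbour within 100 kb of 10.8% to 16.6%, an AP-1 share of 28.5% to 33.1%, and a median shift of nearby shared loci of -2.05 to 0.0784. That shift changed sign without parental replicate 1 (0.0784) and without SAP30-KO1 replicate 1 (0.0141), and the cause was not tested. Without a count of reads, a missing peak cannot be told apart from a peak just under the threshold.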
